A study of Mus musculus with 9 samples.

Results

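Zfp984, Olfr784, Rtn1, Gprin1 and Ube2ql1 are 5 of 52609 mouse genes with a matched transcript, picked because their RNA level in cells kept in IWP2 lay away from the control level and moved back towards it in cells from which IWP2 had been removed. They were selected on the adjusted p-values and signs of 2 comparisons, IWP2 against control and IWP2_removed against IWP2. A gene had to be called (adjusted p below 0.05) in both, in opposite directions. Because both comparisons use the same IWP2 libraries, an extreme value in those libraries alone gives opposite signs. All 5 genes passed the filter on low counts, which left 18096 genes.

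The cells were described as mouse epiblast stem cells, which are derived from the epiblast, the tissue that gives rise to the embryo proper, and were grown on inactivated mouse embryonic fibroblasts as feeder cells. RNA sequencing libraries (TruSeq stranded mRNA) came from 4 groups, each given FGF2 (10 ng/mL) together with Activin A (20 ng/mL) in its medium. A control line without inhibitor (n = 2 libraries) stood beside cells kept in 5 µM IWP2 (IWP2, n = 2). Further cells were derived with IWP2 and then kept without it (IWP2_removed, n = 2). The last group was a line lacking Dkk1, whose secreted protein antagonises Wnt receptors (Dkk1_KO, n = 3). The treatment protocol also names SB431542, but the labels give it to none of these groups. No group is known to hold more than 1 line, so a difference between groups and a difference between lines cannot be told apart. The labels do not say whether libraries of a group came from separate cultures, so p-values measure only the spread between these libraries.

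Totals ran from 10849490 to 17892751 estimated reads per library. Dkk1, the targeted gene, stood at 6.77 and 8.95 CPM (estimated counts scaled to a common library total, with TMM factors) in the control libraries and at 0.70, 0.84 and 1.13 CPM in Dkk1_KO. In the IWP2 libraries it stood at 2.89 and 0.35 CPM and in IWP2_removed at 3.45 and 5.84 CPM. A list of 14 epiblast stem cell markers summed to between 1776 and 3780 CPM over the 6 libraries without the knockout and to between 1022 and 1077 CPM in Dkk1_KO, with a read for each of the 14 in every library. Of those markers 8 were called lower and 3 higher in Dkk1_KO against control, where 23% and 21.3% of all genes tested were called. A list of 12 trophoblast markers summed to between 59.0 and 141 CPM in the 6 libraries and to between 3630 and 3677 CPM in Dkk1_KO. In Dkk1_KO against control 11 of the 12 were called higher. The Dkk1_KO libraries therefore do not carry the marker levels of the other 3 groups.

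IWP2 blocks Porcupine, the enzyme that adds a lipid to Wnt proteins so that they can be secreted and bind Frizzled receptors. Without Wnt ligand the transcriptional coactivator β-catenin is degraded, and genes that depend on it with Tcf/Lef factors are not activated. In the epiblast, Wnt signalling is known for promoting primitive streak and mesoderm fates and for opposing neural ones. Of the 5 genes, Zfp984 belongs to a cluster of zinc finger genes, whose proteins bind DNA, and Olfr784 encodes an olfactory receptor, a G protein-coupled receptor of sensory neurons. Rtn1 is a reticulon, a membrane protein that shapes the tubules of the endoplasmic reticulum and is abundant in neurons and neuroendocrine cells. Gprin1 (G protein-regulated inducer of neurite outgrowth) binds activated Gi/o alpha subunits at the membrane of growing neurites. Ube2ql1 encodes a relative of the ubiquitin-conjugating enzymes and has been linked to the ubiquitin ligase receptor Fbxw7, which targets cyclin E.

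Rtn1 has start sites of very different base composition, and their shares of its TPM differed between some groups. The 250 bases that precede start sites of the 3 genes that were higher in IWP2, and of Zfp984, are therefore shown. They come from RefSeq windows on GRCm38.p6, are written 5′ to 3′ on the minus strand, on which all 4 genes lie, and carry CG dinucleotides in capitals. The windows are chr12:72236728-72236977 (Rtn1, downstream start), chr12:72409055-72409304 (Rtn1, upstream start), chr13:54749875-54750124 (Gprin1), chr13:69739898-69740147 (Ube2ql1) and chr4:147809789-147810038 (Zfp984).
Rtn1 downstream start: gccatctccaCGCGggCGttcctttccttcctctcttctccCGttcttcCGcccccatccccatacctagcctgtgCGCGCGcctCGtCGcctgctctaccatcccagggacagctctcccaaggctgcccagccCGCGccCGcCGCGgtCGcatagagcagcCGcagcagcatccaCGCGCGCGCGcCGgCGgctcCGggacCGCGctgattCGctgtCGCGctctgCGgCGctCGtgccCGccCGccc
Rtn1 upstream start: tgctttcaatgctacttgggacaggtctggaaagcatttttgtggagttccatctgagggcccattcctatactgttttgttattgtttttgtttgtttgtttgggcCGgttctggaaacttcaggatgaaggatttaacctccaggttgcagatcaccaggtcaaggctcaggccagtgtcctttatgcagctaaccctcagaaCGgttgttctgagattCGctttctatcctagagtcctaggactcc
Gprin1: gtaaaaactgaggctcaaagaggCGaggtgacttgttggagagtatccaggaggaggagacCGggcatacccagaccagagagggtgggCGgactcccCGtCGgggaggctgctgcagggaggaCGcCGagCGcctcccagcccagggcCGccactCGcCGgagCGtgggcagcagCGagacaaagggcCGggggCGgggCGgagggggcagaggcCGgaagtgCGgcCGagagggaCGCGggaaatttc
Ube2ql1: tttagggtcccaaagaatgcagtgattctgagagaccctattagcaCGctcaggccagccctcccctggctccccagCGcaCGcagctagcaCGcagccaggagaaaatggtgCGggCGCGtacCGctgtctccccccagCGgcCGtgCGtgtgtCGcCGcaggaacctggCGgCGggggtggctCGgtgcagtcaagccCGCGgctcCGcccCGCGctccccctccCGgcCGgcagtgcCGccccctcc
Zfp984: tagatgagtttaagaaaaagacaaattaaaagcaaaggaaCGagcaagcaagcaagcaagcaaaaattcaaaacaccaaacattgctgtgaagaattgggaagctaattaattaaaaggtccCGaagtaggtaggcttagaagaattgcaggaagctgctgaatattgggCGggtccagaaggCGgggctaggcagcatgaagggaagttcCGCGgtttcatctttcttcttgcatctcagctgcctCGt
The window before the downstream Rtn1 start holds 35 CG dinucleotides, more than 97.0% of all 32851 promoter windows of the same length. Only 3 lie before the upstream Rtn1 start, where the share of windows with fewer is 29.0%. Gprin1 has 21 (83.7% of windows have fewer), Ube2ql1 has 24 (88.0%) and Zfp984 has 7 (53.7%), against a median of 6. Both strands of these windows, of the Olfr784 window and of a further Rtn1 window (chr12:72235747-72235996) were searched for CTTTGAA and CTTTGAT (Tcf/Lef type words, found in 4.46% and 3.21% of all windows) and for TTCAGCACC (part of the RE1 element bound by REST, found in 0.301%). None of these words overlaps another within a window. The single match was 1 CTTTGAA in the further Rtn1 window, which precedes the start of the transcript Rtn1-205. That window holds 8 CG dinucleotides (57% of windows have fewer) and is not shown. The RefSeq window of Olfr784 precedes its coding part and not the start of the transcript that received its reads, and is not shown.

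**Figure D1:**
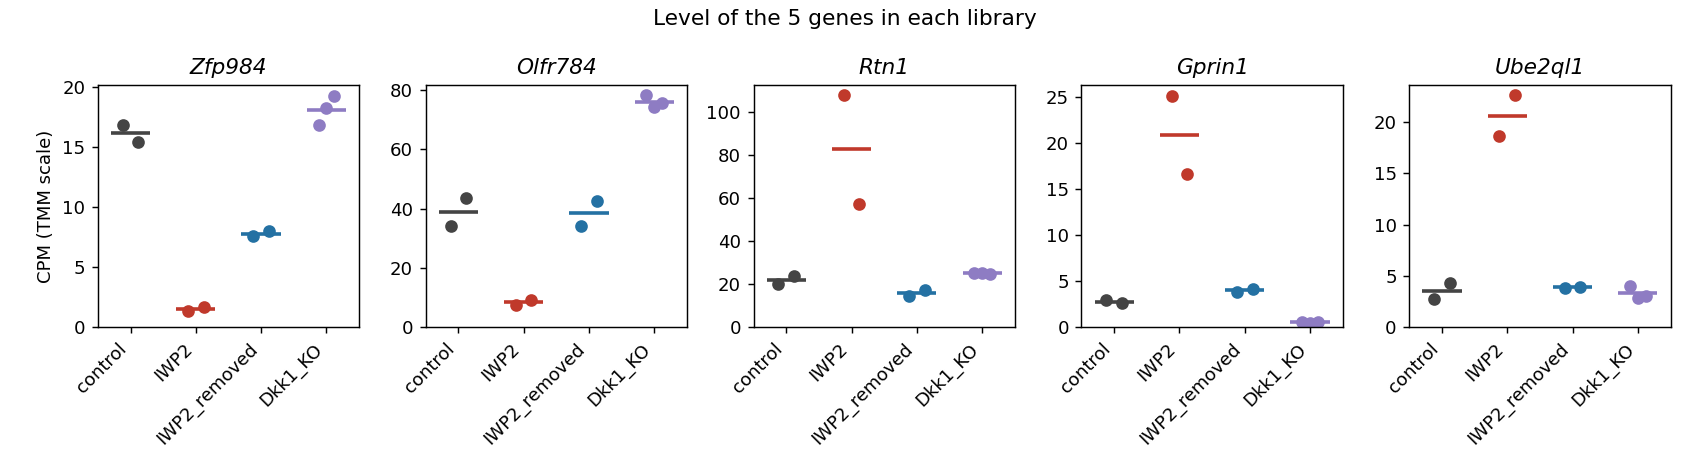
Level of each gene in every library (vertical axis, CPM on the TMM scale, from 0, with a separate scale per gene). Points are libraries and bars are group means of control (n = 2), IWP2 (n = 2), IWP2_removed (n = 2) and Dkk1_KO (n = 3). Zfp984 and Olfr784 are lowest in the IWP2 libraries, the other 3 genes are highest there, and Gprin1 is near 0.6 CPM in Dkk1_KO.

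Zfp984 (ENSMUSG00000078495.10, chr4:147753974-147809788, minus strand, GRCm38) was nearly lost in IWP2 and came back by part. It stood at 16.8 and 15.4 CPM in the control libraries, at 1.39 and 1.74 CPM in IWP2, at 7.57 and 8.04 CPM in IWP2_removed and at 16.8, 18.2 and 19.3 CPM in Dkk1_KO. The 3 groups without the knockout did not overlap, and the IWP2_removed libraries lay between control and IWP2. The group means were 16.1 ± 0.9995 (SD, n = 2) in control, 1.57 ± 0.25 (SD, n = 2) in IWP2 and 7.80 ± 0.34 (SD, n = 2) in IWP2_removed, so that IWP2_removed stood at 48.4% of control. The fitted log2 fold change was -3.36 ± 0.22 (SE) for IWP2 against control and 2.31 ± 0.21 (SE) for IWP2_removed against IWP2. On the log2 scale 68.9% of the difference was returned.

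The 2 transcripts of Zfp984 stood at different levels relative to control after removal. Zfp984-201, which starts at the gene's start, had 3.82 and 2.42 TPM (a relative level scaled by transcript length) in control, 0.301 and 0.408 TPM in IWP2 and 0.809 and 0.836 TPM in IWP2_removed. Zfp984-202, which starts inside the gene at position 147775833, had 1.55 and 1.81 TPM in control, 0.111 and 0 TPM in IWP2 and 1.44 and 1.40 TPM in IWP2_removed. Both transcripts lay below control in both IWP2_removed libraries, the shorter one by less than the longer one. Zfp984-201 made up 64.2 ± 9.82% (SD, n = 2) of the gene's TPM in control and 36.7 ± 1.07% (SD, n = 2) in IWP2_removed, and these libraries did not overlap. The IWP2 share rests on 55 reads in both libraries and is not given here. The split between the transcripts was estimated, since none of the 17 non-zero read values of Zfp984 was whole within 0.001 reads.

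Reads of Zfp984 are also hard to place in the genome. Of the 31-base words in Zfp984-201, 73.6% occur in transcripts of other genes, 59 genes in all, and 64.1% occur in the predicted zinc finger gene Gm13212 alone. Partners differed from one another in IWP2. Gm13212 had a mean of 2.45 CPM in control, 1.86 in IWP2 and 1.88 in IWP2_removed, and was not called in IWP2 against control (adjusted p = 0.763, edgeR). Zfp990, a zinc finger gene holding 16.2% of the words, was lower in IWP2 against control (log2 -1.98, adjusted p = 0.0125, edgeR). Its means were 5.77 CPM in control, 1.45 in IWP2 and 2.06 in IWP2_removed. In IWP2_removed against IWP2 its log2 was 0.51 (adjusted p = 0.649, edgeR), less than that of Zfp984. Zfp990 was still called lower in IWP2_removed against control (log2 -1.47, adjusted p = 0.0397, edgeR). How reads were divided among these copies, and its part in the Zfp984 values, was not tested.

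Olfr784 (ENSMUSG00000094347.2, chr10:129384083-129390198, plus strand) was lower in IWP2 and back at the control level after removal. Control libraries had 34.3 and 43.5 CPM, IWP2 libraries 7.67 and 9.23 CPM, IWP2_removed libraries 34.3 and 42.5 CPM, and Dkk1_KO libraries 78.1, 74.1 and 75.6 CPM. The IWP2_removed libraries lay inside the control range, and the 2 IWP2 libraries lay below every other library. Means were 38.9 ± 6.53 (SD, n = 2) in control and 38.4 ± 5.77 (SD, n = 2) in IWP2_removed, which is 98.7% of control. The log2 fold change was -2.20 ± 0.18 (SE) for IWP2 against control, 2.18 ± 0.18 (SE) for IWP2_removed against IWP2 and -0.02 ± 0.17 (SE) for IWP2_removed against control.

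All reads given to Olfr784 were on Olfr784-202, a transcript of 3119 bases. Olfr784-201 has 960 bases, lies wholly within the other and had no read in any library. The bases before that coding part hold no 31-base word of another gene. In the coding part 41.2% of the words occur in 7 other genes, and in the bases after it 67.3% occur in 49 other genes. The gene with most shared words was Slc38a6, an amino acid transporter with 17.9% of the words of Olfr784-202. Slc38a6 fell in IWP2 (log2 -1.36, adjusted p = 0.00501, edgeR) and did not move back, with means of 102 CPM in control, 39.8 in IWP2 and 39.1 in IWP2_removed. Rab3gap1, with 16.7% of the words, fell too (log2 -0.60, adjusted p = 0.0397, edgeR), and its means of 64.7 CPM in control, 42.7 in IWP2 and 51.4 in IWP2_removed run in the direction of Olfr784. D10Wsu102e, with 10.5%, had 404, 231 and 304 CPM in the same order and did not pass (log2 -0.80, adjusted p = 0.0520, edgeR). Reads of the part after the coding bases can therefore not be tied to the receptor gene alone, and a level of Olfr784 need not be receptor mRNA. Of 1405 other olfactory receptor genes and pseudogenes 458 had no read and 72 were tested. Of these 1 was called lower in IWP2 against control (0.917% of all genes) and none in IWP2_removed against IWP2. For the latter comparison 2 were higher and none lower at an unadjusted p below 0.05, and the DESeq2 Wald test called none.

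Rtn1 (ENSMUSG00000021087.18, chr12:72211752-72409054, minus strand) was the most abundant of the 3 genes that were higher in IWP2. It had 20.3 and 23.7 CPM in control, 108 and 57.4 CPM in IWP2, 14.7 and 17.5 CPM in IWP2_removed and 25.2, 25.4 and 24.8 CPM in Dkk1_KO. Both IWP2 libraries lay above all others, though 1 had nearly double the level of the other, and both IWP2_removed libraries lay below control. Means were 22.0 ± 2.39 (SD, n = 2), 82.6 ± 35.6 (SD, n = 2) and 16.1 ± 2.00 (SD, n = 2) CPM, so that IWP2_removed stood at 73.0% of control. The log2 fold change was 1.91 ± 0.27 (SE) for IWP2 against control, 1.37 without IWP2 replicate 1 and 2.28 without IWP2 replicate 2. For IWP2_removed against IWP2 it was -2.36 ± 0.28 (SE).

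The gene has 6 annotated transcripts. Rtn1-202 starts at the upstream start (position 72409054) and the other 5 near the downstream one, Rtn1-201 at 72236724. Nearly all of the difference in IWP2 was in the downstream group. Its 5 transcripts summed to 5.86 and 6.19 TPM in control, 51.2 and 21.0 TPM in IWP2, 6.87 and 7.46 TPM in IWP2_removed and 2.29, 2.77 and 1.80 TPM in Dkk1_KO. The downstream group was thus back at about its control level after removal, and lowest in the knockout. Rtn1-202 had 2.49 and 2.51 TPM in control, 6.27 and 2.21 TPM in IWP2, 0.762 and 0.666 TPM in IWP2_removed and 3.62, 3.51 and 3.73 TPM in Dkk1_KO. The upstream transcript lay below control in both IWP2_removed libraries and above it in all 3 Dkk1_KO libraries, while the IWP2 libraries straddled control.

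As a share of the gene's TPM, Rtn1-202 was 29.3 ± 0.69% (SD, n = 2) in control, 10.2 ± 0.997% (SD, n = 2) in IWP2, 9.09 ± 1.26% (SD, n = 2) in IWP2_removed and 61.5 ± 5.77% (SD, n = 3) in Dkk1_KO. The share in IWP2_removed overlapped that in IWP2 and not that in control, so the gene's level returned without its transcript composition. For Dkk1_KO against control the libraries did not overlap, with a two-sided exact permutation p = 0.2, the smallest that 3 against 2 libraries allow (adjusted p = 0.2 over 2 such tests, with Zfp984-201 the other). Rtn1-201 had no read in any Dkk1_KO library, and the downstream reads there, 65.2, 72.4 and 50.6, were all given to Rtn1-205, annotated as a processed transcript. Overlapping transcripts share most of their bases, and only 4 of 34 non-zero values of Rtn1 were whole, so these shares are estimates. Almost no word of Rtn1 occurs in another gene (0.0715% at most in any of its transcripts).

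**Figure D2:**
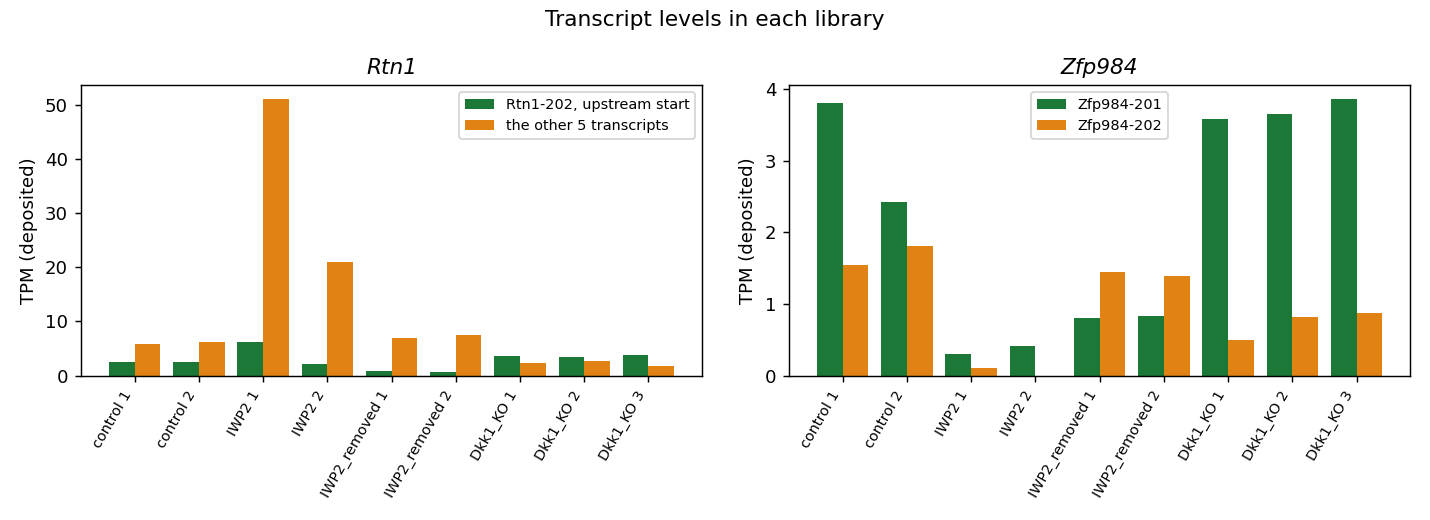
Deposited TPM per library (vertical axes from 0) for Rtn1-202 and the sum of the 5 other Rtn1 transcripts (left) and for both Zfp984 transcripts (right). The IWP2 libraries reach 51.2 and 21.0 TPM in the 5 downstream Rtn1 transcripts, and Zfp984-201 stays below 0.9 TPM in both IWP2_removed libraries where Zfp984-202 is near 1.4 TPM.

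Gprin1 (ENSMUSG00000069227.4, chr13:54736671-54749874, minus strand) was rare in control and higher in IWP2. It had 2.94 and 2.61 CPM in control, 25.1 and 16.7 CPM in IWP2, 3.87 and 4.21 CPM in IWP2_removed and 0.56, 0.53 and 0.64 CPM in Dkk1_KO. No 2 groups overlapped, and IWP2_removed lay closer to control than to IWP2 but above it in both libraries. Means were 2.78 ± 0.23 (SD, n = 2), 20.9 ± 5.99 (SD, n = 2) and 4.04 ± 0.24 (SD, n = 2) CPM, with 75, 739 and 131 reads behind them. The log2 fold change was 2.91 ± 0.28 (SE) for IWP2 against control and -2.37 ± 0.27 (SE) for IWP2_removed against IWP2, and 0.54 ± 0.28 (SE) for IWP2_removed against control. Most reads were given to Gprin1-201. Gprin1-202 had reads in the IWP2 libraries (48.5 and 32.7) and in IWP2_removed replicate 2 (20.9), and none in the other 6.

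Ube2ql1 (ENSMUSG00000052981.6, chr13:69702832-69739889, minus strand), the second of these genes on chromosome 13, has a single transcript. It had 2.76 and 4.35 CPM in control, 18.6 and 22.6 CPM in IWP2, 3.87 and 3.96 CPM in IWP2_removed and 3.99, 2.89 and 3.04 CPM in Dkk1_KO. The IWP2 libraries lay above all others, and the IWP2_removed libraries lay inside the control range. Means were 3.56 ± 1.13 (SD, n = 2), 20.6 ± 2.84 (SD, n = 2) and 3.92 ± 0.06 (SD, n = 2) CPM. The log2 fold change was 2.52 ± 0.30 (SE) for IWP2 against control, -2.39 ± 0.29 (SE) for IWP2_removed against IWP2 and 0.13 ± 0.30 (SE) for IWP2_removed against control. All 9 of its read values were whole, and no 31-base word of Ube2ql1 or Gprin1 occurs in another gene, so neither carries the doubt over placement that Zfp984 and Olfr784 do.

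Per length, Olfr784 was the most abundant of the 5 in control together with Rtn1 (9.42 and 8.52 TPM), above Zfp984 (4.80 TPM), Ube2ql1 (1.01 TPM) and Gprin1 (0.503 TPM). The control ranges of Olfr784 (9.08 to 9.76 TPM) and Rtn1 (8.34 to 8.69 TPM) lay side by side. In IWP2 the order of the mean TPM was Rtn1 (40.3), Ube2ql1 (5.43), Gprin1 (3.53), Olfr784 (1.89) and Zfp984 (0.410). Ube2ql1 (5.41 and 5.45) stood above both Gprin1 libraries (4.58 and 2.48). In IWP2_removed the order was again that of control, with 8.71 TPM for Olfr784, 7.88 for Rtn1, 2.24 for Zfp984, 1.06 for Ube2ql1 and 0.675 for Gprin1, and the libraries of Olfr784 (8.08 and 9.34) and Rtn1 (7.64 and 8.12) overlapped.

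**Figure D3:**
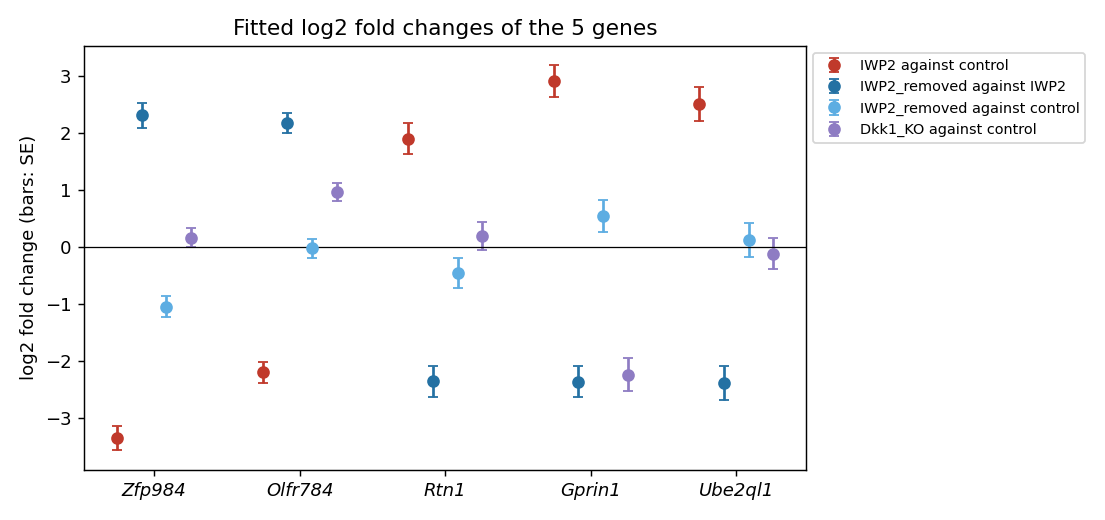
Fitted log2 fold changes (points) with their standard errors (bars) for the 5 genes in 4 comparisons. IWP2 against control and IWP2_removed against IWP2 chose the genes and share the IWP2 libraries. IWP2_removed against control lies within 0.6 of 0 for 4 genes and at -1.05 for Zfp984.

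The calls of these genes in both comparisons rest on a narrow margin. Over all genes 396 of 18096 were called in IWP2 against control (2.19%) and 11 in IWP2_removed against IWP2 (0.0608%), and 7 were called in both in opposite directions (0.0387%). The 2 genes lower in IWP2 and higher after removal stand beside 0.917% and 0.0387% of all genes called in those directions, and the 3 in the opposite directions beside 1.27% and 0.0221%. Beside the 5, these were Gdf3, a TGF-β family ligand, and the lincRNA Gm45322. Just inside the threshold stood Ube2ql1, with 0.0499 as the larger of its 2 adjusted p-values, and just outside Arrdc3 (0.0553), Meg3 (0.0595), Slc16a1 (0.0612), Gm47450 (0.0612) and Ccn5 (0.0669). The 2 comparisons chose the genes, so these p-values test nothing about them. In a fit of the 6 libraries without Dkk1_KO none of the 5 was called in both comparisons, and likewise with any 1 Dkk1_KO or IWP2_removed library left out, although all 5 had opposite signs in the 2 comparisons in each of these fits. Without either control library 1 of the 5 was called in both. That fit of 6 libraries called 12 genes in all in IWP2 against control, and 448 with a replicate block, where 1 of the 5 was called in both comparisons. The Dkk1_KO libraries, whose replicates lie close together, thus enter the spread on which these calls rest.

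In IWP2_removed against control, which also uses libraries that chose the genes, 227 genes were called (1.25% of those tested, 0.669% higher and 0.586% lower), Zfp984 among the lower ones. That call was lost in 14 of 19 alternatives, among them the 6 libraries without Dkk1_KO, where no gene was called lower. Zfp984 was lower by a log2 of -1.05 ± 0.19 (SE), and Rtn1 stood at -0.46 ± 0.27 (SE). The other 3 genes are given above. These are descriptions, since a gene that had not moved back would not have been chosen.

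Dkk1_KO against control is the comparison that the choice did not use, although it shares the control libraries. Here 2 of the 5 genes were called by edgeR's quasi-likelihood test with Benjamini-Hochberg adjustment, against 44.3% of all genes tested (21.3% higher and 23% lower). Gprin1 fell by 2.25 on the log2 scale (SE 0.29, adjusted p = 0.000415), to 0.58 ± 0.05 CPM (SD, n = 3), lower in 3 of 3 libraries. Olfr784 rose by 0.96 on the log2 scale (SE 0.16, adjusted p = 0.00148), to 76.0 ± 2.03 CPM (SD, n = 3), higher in 3 of 3 libraries. The 5 genes that share most words with Olfr784-202 also rose in Dkk1_KO, by log2 2.66 (Slc38a6), 1.97 (Gm44215), 1.69 (Rab3gap1), 1.18 (D10Wsu102e) and 0.78 (Pld1), and their part in the Olfr784 value was not tested. Zfp984 (log2 0.17 ± 0.17 SE, adjusted p = 0.463, edgeR), Rtn1 (log2 0.19 ± 0.25 SE, adjusted p = 0.563, edgeR) and Ube2ql1 (log2 -0.11 ± 0.27 SE, adjusted p = 0.762, edgeR) did not pass. Gprin1 thus lay on opposite sides of control in IWP2 and in Dkk1_KO, and so did Olfr784.

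Both calls have a setting that ends them. With the 3 Dkk1_KO libraries averaged to 1, Olfr784 had an adjusted p of 0.0591 in edgeR (range over 17 alternatives 7.845e-07 to 0.0591). With limma-trend on log2(TPM + 1), a scale that understates changes of low genes, Gprin1 had a log2 difference of -0.46 and an adjusted p of 0.0862 (range over 17 alternatives 4.188e-06 to 0.0862). The marker lists of epiblast and trophoblast moved in the same comparison, as given above, and in bulk RNA fewer cells of a type and less RNA per cell cannot be told apart. Their part in the Gprin1 and Olfr784 results was not tested.

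Neuronal genes as a group ran beside Rtn1 and Gprin1. A list of 28 neuronal differentiation genes, without these 5, had 27 positive log2 fold changes in IWP2 against control, with a median of 1.43 against 0.01 over all genes. Of the 28, 10 were called higher and none lower (22 higher and 1 lower at an unadjusted p below 0.05, and 20 higher and 1 lower by the DESeq2 Wald test), where 1.27% of all genes were called higher. Dcx, a microtubule protein of migrating neurons, rose from 12.6 and 13.7 CPM in control to 182 and 85.9 CPM in IWP2 (log2 3.35, adjusted p = 0.00649, edgeR). Gap43, a protein of growth cones, rose from 24.7 and 28.8 CPM to 73.7 and 81.2 CPM (log2 1.53, adjusted p = 0.0125, edgeR). Dpysl3, the most abundant of the list, had 169 ± 39.7 CPM (SD, n = 2) in control and 235 ± 147 CPM (SD, n = 2) in IWP2 and did not pass (log2 0.48, adjusted p = 0.650, edgeR). In the 6 libraries without Dkk1_KO none of the 28 was called, with the median still at 1.43, while the same 6 libraries with a replicate block gave 12 higher and 1 lower. Over all 9 libraries the block gave 11 higher and 1 lower, and the count of 10 became 1 without control replicate 1, 0 without control replicate 2 and 3 without any 1 Dkk1_KO library.

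After removal the same list moved back by part. In IWP2_removed against IWP2, 1 of the 28 log2 fold changes was positive and the median was -0.98 (all genes -0.01), but none was called by edgeR (1 higher and 19 lower at an unadjusted p below 0.05, 1 higher and 8 lower by DESeq2). Dcx stood at 54.1 and 41.2 CPM in IWP2_removed, still above control, and Gap43 at 24.6 and 36.0 CPM, across the control range. In Dkk1_KO against control 25 of the 28 were called lower and 1 higher, against 23% and 21.3% of all genes tested. The summed level of the list was 712 to 786 CPM in control, 1449 to 1856 in IWP2, 858 to 986 in IWP2_removed and 136 to 142 in Dkk1_KO. Gprin1 had the same order of groups as this sum, while Rtn1 was lowest in IWP2_removed and the Dkk1_KO libraries of Ube2ql1 overlapped control. In the 6 libraries without Dkk1_KO every one of the 28 had at least 1 read in each library. The part of neuron-like cells in the values of Rtn1, Gprin1 and Ube2ql1 was not tested.

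Of 16 neural progenitor genes none was called in IWP2 against control by edgeR (3 higher and none lower unadjusted, 2 higher by DESeq2), with sums of 827 to 837 CPM in control, 943 to 949 in IWP2 and 720 to 853 in IWP2_removed. Of 18 feeder fibroblast genes none was called (none higher and 2 lower unadjusted, 1 lower by DESeq2), with sums of 5251 to 6141, 4210 to 5007 and 5093 to 5946 CPM. Of 19 Wnt/β-catenin target genes none was called in IWP2 against control (1 higher and 2 lower unadjusted, 1 higher by DESeq2). In IWP2_removed against IWP2 none was called either (1 higher unadjusted, none by DESeq2). In IWP2 against control 12 of 16 progenitor, 2 of 18 feeder and 6 of 19 Wnt target genes had positive log2 fold changes. Their medians were 0.39, -0.31 and -0.25, against 0.01 over all genes. In IWP2_removed against IWP2 the positive counts were 2, 17 and 12, with medians of -0.56, 0.34 and 0.14 (all genes -0.01). Of 12 trophoblast markers 1 was positive in IWP2 against control, with a median log2 of -0.58. Called lower was Krt7 alone (4 lower unadjusted, 3 by DESeq2), against 0.917% of all genes. Krt7, a simple epithelial keratin, had means of 2.48 CPM in control, 0.79 in IWP2 and 2.60 in IWP2_removed. In IWP2_removed against IWP2, 9 of the 12 were positive (median 1.03) and none was called (3 higher unadjusted, 2 by DESeq2). The 2 IWP2 libraries differed in their epiblast sum, 1776 CPM in replicate 1, where Rtn1 and Gprin1 were highest, and 3780 CPM in replicate 2.

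**Figure D4:**
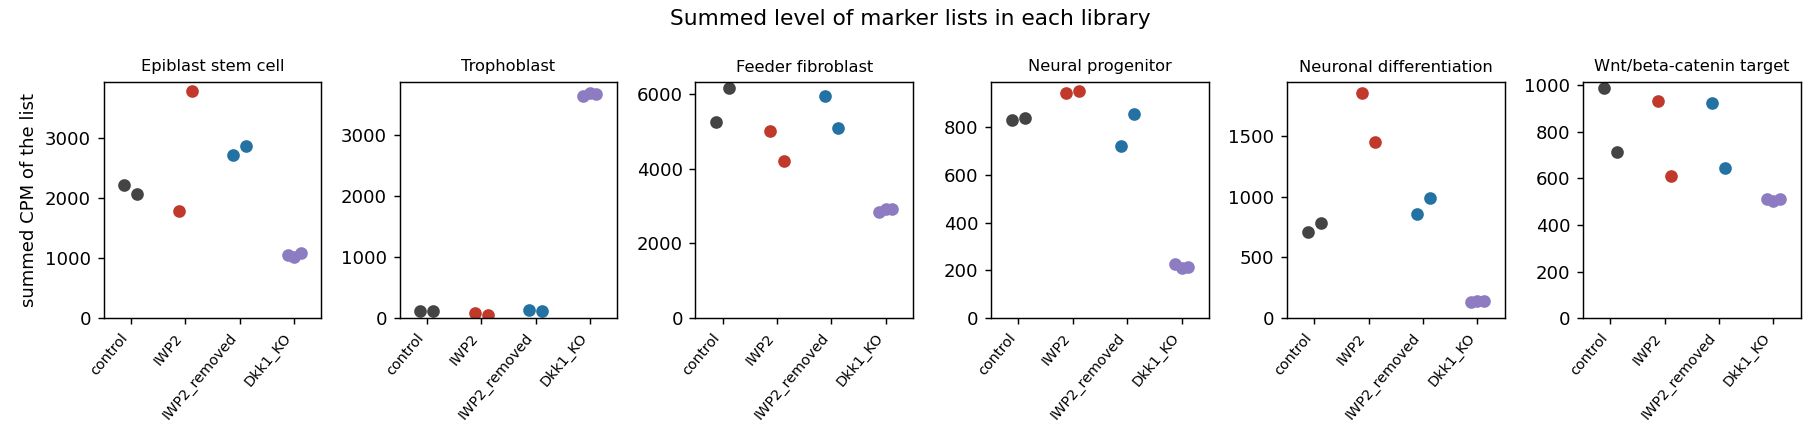
Summed CPM of 6 marker lists in each library (points, vertical axes from 0, a separate scale per list). The neuronal differentiation sum is highest in the 2 IWP2 libraries (1449 and 1856 CPM) and the trophoblast sum is high in the 3 Dkk1_KO libraries alone.

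Few relatives and partners of the 5 genes were called, beside 2.19% of all genes in IWP2 against control and 0.0608% in IWP2_removed against IWP2. At such shares a short list without a call need not differ from other genes. Of 16 other genes that shape the endoplasmic reticulum none was called in IWP2 against control or in IWP2_removed against IWP2 by edgeR (2 higher and 2 lower, then 1 higher and 3 lower, unadjusted, and 1 lower by DESeq2 in each). Among them Reep1 had 23.7 ± 4.25 CPM (SD, n = 2) in control, 38.7 ± 5.84 in IWP2 and 21.3 ± 3.14 in IWP2_removed, and Atl2, a GTPase that fuses tubules, 101 ± 3.43, 69.2 ± 8.03 and 86.1 ± 9.65. The other reticulons, Rtn2, Rtn3 and Rtn4, had control means of 16.3, 347 and 418 CPM and IWP2 means of 29.9, 374 and 347 CPM. Of 7 genes for Gprin1 relatives and Gi/o alpha subunits none was called in either comparison (1 higher, then 1 higher and 1 lower, unadjusted, and 0 then 1 higher by DESeq2). Gnao1, the alpha subunit named Go, had 28.1 ± 10.96 CPM (SD, n = 2) in control, 51.0 ± 2.86 in IWP2 and 28.7 ± 12.01 in IWP2_removed. Gprin2 and Gprin3 had control means of 3.17 and 0.62 CPM and IWP2 means of 5.45 and 0.45 CPM.

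Of 42 other genes with a Ube2 symbol 34 were tested and none was called in either comparison (5 higher, then 1 higher and 1 lower, unadjusted, and 0 then 1 higher by DESeq2). The relatives Ube2q1 and Ube2q2 had control means of 117 and 38.8 CPM and IWP2 means of 126 and 34.1 CPM. Of 7 genes of the Fbxw7 ligase and cyclin E none was called (1 higher in IWP2 unadjusted and by DESeq2, and none in IWP2_removed against IWP2 by either). Fbxw7 itself had means of 38.2 CPM in control, 33.9 in IWP2 and 40.6 in IWP2_removed. Among 389 tested genes with a Zfp symbol other than Zfp984, 8 were called higher and 5 lower in IWP2 against control (1.27% and 0.917% of all genes). None was called in IWP2_removed against IWP2 (11 higher and 26 lower unadjusted, 2 higher and 5 lower by DESeq2). Zfp110 fell in IWP2 from 46.9 ± 4.32 to 20.0 ± 1.10 CPM (SD, n = 2 each, adjusted p = 0.00438, edgeR) and stood at 34.2 ± 2.43 CPM in IWP2_removed.

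Genes that start within 500 kb were examined because a change of a region would touch several neighbours. Around Zfp984, 25 of 44 annotated neighbours were tested. In IWP2 against control 1 rose, Draxin, a secreted axon guidance protein 321 kb away, and 1 fell, the lincRNA Gm20707 (2.19% of all genes were called). Gm20707 lies on the same strand, overlaps Zfp984 and starts 52 bases from its start. It had 4.63 and 6.28 CPM in control, 1.39 and 0.87 in IWP2 and 3.33 and 3.83 in IWP2_removed, a log2 of -2.26 ± 0.33 (SE, adjusted p = 0.0161, edgeR) for IWP2 against control and 1.65 ± 0.33 (SE, adjusted p = 0.122, edgeR) for IWP2_removed against IWP2. It shares 225 of its 31-base words with Zfp984-201, and how reads were divided between them was not tested. The median log2 fold change of the 25 neighbours was -0.29, against 0.01 over all genes. Among them 3 were higher and 4 lower at an unadjusted p below 0.05, and DESeq2 called 1 higher and 2 lower. The nearest tested gene on the other side, Zfp534 at 107 kb, had means of 0.196 CPM in control and 0.0290 in IWP2 and did not pass.

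In IWP2 against control, neighbours of Rtn1, Gprin1 and Ube2ql1 were called in 1 direction only, higher, as were 1.27% of all genes. None of 6 tested neighbours of Olfr784 was called in IWP2 against control (1 higher unadjusted and 1 by DESeq2), and 65 genes are annotated there. Of 7 tested neighbours of Rtn1, L3hypdh rose (from 4.55 ± 0.37 to 10.8 ± 0.79 CPM, SD, n = 2 each, adjusted p = 0.0267, edgeR), and Lrrc9, the nearest at 32.8 kb, had means of 7.10 and 7.08 CPM. Of 22 tested neighbours of Gprin1, Cplx2, a synaptic complexin, rose (from 89.7 and 92.9 CPM to 198 and 491 CPM, adjusted p = 0.0338, edgeR), and so did 4833439L19Rik (from 111 ± 10.8 to 184 ± 17.0 CPM, SD, n = 2 each, adjusted p = 0.0310, edgeR). Of 5 tested neighbours of Ube2ql1, Tent4a rose (from 50.2 ± 2.64 to 80.4 ± 12.4 CPM, SD, n = 2 each, adjusted p = 0.0489, edgeR). At an unadjusted p below 0.05, 4 of 7, 12 of 22 and 3 of 5 neighbours of Rtn1, Gprin1 and Ube2ql1 were higher and none lower. Over all genes 1652 of 18096 were higher and 1320 lower by that measure. For the same 3 genes the DESeq2 Wald test called 1, 7 and 2 neighbours higher and none lower. In IWP2_removed against IWP2 none of the neighbours of any of the 5 genes was called by edgeR. Unadjusted, 1, 0, 0, 1 and 0 were higher and 1, 1, 4, 9 and 3 lower in the order Zfp984, Olfr784, Rtn1, Gprin1 and Ube2ql1. The DESeq2 Wald test called 1 higher near Zfp984, none near Olfr784, and 2 lower near each of the other 3 genes.

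The median neighbour of Gprin1 and of Ube2ql1 was itself above control in IWP2, by log2 0.55 and 0.66, and that of Rtn1 by 0.38. The same held for chromosome 13 as a whole. Of its 756 tested genes 31 were called higher and 8 lower in IWP2 against control (1.27% and 0.917% of all genes). Against the control mean, its median log2 was 0.36 in IWP2 replicate 1 and 0.22 in IWP2 replicate 2. The median fitted log2 was 0.34 in IWP2 against control and -0.44 in IWP2_removed against IWP2, where all genes had 0.01 and -0.01. Chromosome 12 had medians of 0.12 and -0.29, chromosome 4 of 0.05 and 0.01, and chromosome 10 of -0.06 and -0.01. Less the median of chromosome 13, Gprin1 stood at 2.58 and Ube2ql1 at 2.18 in IWP2 against control, and at -1.92 and -1.95 in IWP2_removed against IWP2. Less that of chromosome 12, Rtn1 stood at 1.79 and -2.07. In IWP2_removed against control the chromosome 12 median was -0.14 (all genes 0.005). Rtn1 stood there at -0.46, and at -0.32 less that median. These comparisons all use libraries that chose the genes, so the distances are a description. The part of the chromosome shifts in the values of the genes was not tested.

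**Figure D5:**
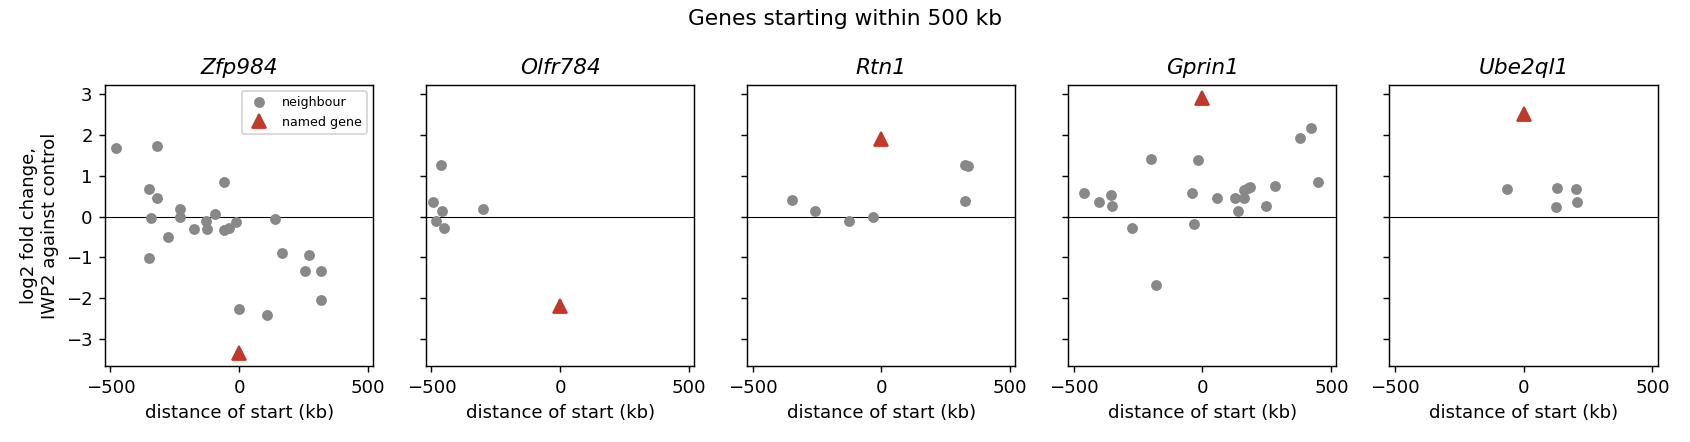
Log2 fold change in IWP2 against control (vertical axis) of tested genes that start within 500 kb of each gene (grey points), by distance between start sites in kb (horizontal axis, positive in the direction of transcription), with the gene itself as a red triangle at 0. Each gene lies beyond all its neighbours, and the neighbours of Ube2ql1 are all above 0.

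The genes whose level over the libraries was most like each of the 5 were named by Pearson's r of log2 CPM, among genes averaging 1 CPM or more. These r describe 9 or 6 libraries that share groups. Over 9 libraries Zfp984 was most like Nhlrc1 (r = 0.972), its overlapping neighbour Gm20707 (0.968) and Lman1 (0.957), and Olfr784 most like Gm47450 (0.994) and Dlg1 (0.975). Gm47450 shares 77 words of 31 bases with Olfr784-202, and the part of shared reads in the likeness was not tested. Rtn1 was most like Ercc6l2 (0.950), Snap91 (0.935) and Sarm1 (0.930), Gprin1 most like Cdk13 (0.993), Spin1 (0.988) and Ksr2 (0.986), and Ube2ql1 most like Gm10232 (0.977), Vps41 (0.962) and Eif4enif1 (0.952). Gm10232, a processed pseudogene, had reads in the IWP2 libraries alone, at a mean of 7.97 CPM. Ercc6l2, Cdk13, Spin1 and Vps41 lie on chromosome 13, which holds 756 of the 18096 genes tested.

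Over the 6 libraries without Dkk1_KO, Zfp984 was most like Amdhd2 (0.998), Pcdha7 (0.996) and Xpnpep3 (0.996), and Olfr784 most like Cfap74 (0.994), Gm43778 (0.991) and Gm47450 (0.990). Cfap74 holds 323 words of Olfr784-202 on its opposite strand. Rtn1 was most like Garem2 (0.994), Arl10 (0.994) and Ranbp9 (0.992), the last 2 on chromosome 13. Gprin1 was most like Tceal6 (0.996), Ksr2 (0.992) and Rundc3b (0.989), and Ube2ql1 most like Gpr85 (0.999), Lypd6 (0.996) and Islr2 (0.994). Of these, Pcdha7, a clustered protocadherin, went from 8.28 CPM in control to 0.227 in IWP2 and 3.31 in IWP2_removed, a return by part as in Zfp984. Islr2, an axon membrane protein, went from 2.24 CPM in control to 10.7 in IWP2 and 2.80 in IWP2_removed. Among the 5 themselves, r over the 6 libraries was 0.945 between Zfp984 and Olfr784 and between 0.912 and 0.953 among Rtn1, Gprin1 and Ube2ql1, as the choice of genes brings about.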

How the data were processed

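Per the submitters' processing notes, Salmon, DESeq2 and edgeR were used, without versions. The authors deposited, for each library, estimated counts and TPM per transcript. Its transcriptome build is not given in any source used here. Transcripts were assigned to genes with GENCODE vM21 (GRCm38) by identifier. In each library 219 transcripts, with 0.117% to 0.161% of the reads, did not match and were left out. Gene values (52609 genes) are the rounded sums of those estimated counts, and transcript TPM were taken as deposited or summed.

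Groups were compared with edgeR 4.0.16 (R 4.3.3) in 1 quasi-likelihood model over all 9 libraries, with TMM scaling, filterByExpr (18096 genes) and Benjamini-Hochberg adjustment over all genes tested (threshold 0.05). The spread is pooled over the groups because 3 of them have 2 libraries. The code was tested on simulated data. The 5 genes and the gene lists were chosen with earlier results of these data known. For each list the text names the 2 genes with the smallest adjusted p in IWP2 against control and the most abundant one where they bear on the 5 genes. It also names called and nearest neighbours, the 3 most alike genes (1 is not reported here), and the 5 genes next to the threshold. The reticulons, Gprin2, Gprin3, Ube2q1, Ube2q2, Fbxw7, and genes sharing sequence are named as relatives or partners. Alternatives were DESeq2 size factors, the DESeq2 1.42.0 Wald test, other filters, other sets of libraries, a replicate block, limma-trend (limma 3.58.1) and each library left out. The fit of the 6 libraries with a replicate block was added after seeing the data.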

Additional observations from a re-analysis of the deposited data

How the results depend on the processing

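All 5 genes had opposite signs in IWP2 against control and IWP2_removed against IWP2 in every alternative run. The number of the 5 called in both was 5 with DESeq2 size factors, the DESeq2 Wald test, no filter or a filter of 1 CPM, 2 with limma-trend, and 0 with the Dkk1_KO libraries averaged to 1, only the 2 groups compared, or the 6 libraries without Dkk1_KO. With 1 library left out it ran from 0 to 5. The cause was not tested.

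Counts of called genes varied widely. For IWP2 against control (396) they were 1056 with DESeq2, 1220 with no filter, 219 with limma-trend (94 higher and 125 lower, against 230 and 166), 10 with Dkk1_KO averaged, 1 with only the 2 groups and 12 with the 6 libraries. For IWP2_removed against IWP2 (11, of which 63.6% higher) they were 388 with DESeq2 (41.8% higher), 414 with no filter, 18 with the 1 CPM filter, 5 with limma-trend, 1 with Dkk1_KO averaged, 0 with only the 2 groups (242 higher and 421 lower unadjusted in edgeR) and 1 with the 6 libraries. For IWP2_removed against control (227) they were 663 with DESeq2, 732 with no filter, 104 with limma-trend (37 higher and 67 lower), 1 with Dkk1_KO averaged, 10 with only the 2 groups and 1 with the 6 libraries. For Dkk1_KO against control (8018) the count was 2724 with Dkk1_KO averaged. Without 1 library the counts ran from 70 to 2432 (without IWP2 replicate 1), from 0 to 454 (without IWP2 replicate 2) and from 14 to 738 in the first 3 comparisons.

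Same-numbered libraries of control, IWP2 and IWP2_removed deviated together (r = 0.30 to 0.46 over genes). The labels do not say what equal numbers share, and each comparison has only 2 such pairs. The main fit held no replicate block, so this shared deviation stayed in its spread. With the replicate block 1 of the 5 genes was called in both comparisons, also with the 6 libraries. The block gave 2 calls for IWP2_removed against IWP2 (2 with the 6 libraries), 135 for IWP2_removed against control (202 with the 6 libraries), 345 for IWP2 against control (448), and 7340 in the knockout comparison.

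Differences near 0 changed sign: in Dkk1_KO against control, Rtn1 -0.46 and Zfp984 -0.090 with limma-trend, which moves the median of all genes to -0.13, and Ube2ql1 from -0.39 to 0.29 with 1 library left out (0.29 without control replicate 2). In IWP2_removed against control, Olfr784 ran from -0.20 to 0.17 with 1 library left out (0.17 without control replicate 2, 0.12 without IWP2_removed replicate 1) and Ube2ql1 from -0.17 (without control replicate 1) to 0.51. Low reads limit Gprin1 in Dkk1_KO (24 reads in 3 libraries) and Zfp984 in IWP2 (55 in 2).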
